A study of Mus musculus with 4 samples.

Results

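The genes described here are the 4 connexins of the working and conducting heart muscle, Gja1 (Cx43), Gja5 (Cx40), Gjc1 (Cx45) and Gjd3 (Cx30.2), measured in the atrioventricular canal of wild type and Tbx3 hypomorphic mouse embryos. They were taken by name and accession and make up 4 of the 27670 genes and 8 of the 41174 probes on the array. All 4 genes, through 7 of the 8 probes, passed the filter on low signal that left 19091 genes to test. Each of 4 two-colour arrays compared 1 pool of wild type control canals, in green (Cy3), with 1 pool of Tbx3 mutant canals, in red (Cy5). Every pool held tissue pieces from 5 hearts at E10.5, in the middle of gestation. Both genotypes came from mice of mixed Sv129 and C57Bl6 background in equal parts. The labels call the mutant hypomorphic but do not describe the allele. Dyes were not swapped on any of the 4 arrays, so for any 1 gene dye and genotype cannot be told apart. The canal was also dissected and measured as bulk tissue, so fewer cells of a type and less RNA per cell cannot be told apart in any value below.

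Connexins assemble into hexameric half-channels, and the half-channels of neighbouring cells dock to form gap junctions, through which current and small molecules pass. In the embryonic heart the fast-conducting chambers are rich in Gja1 and Gja5, whose channels conduct well. The atrioventricular canal and the nodes rely on Gjc1 and Gjd3, whose channels conduct poorly, and the slow conduction of the canal delays the ventricular beat after the atrial one. Tbx3 is a T-box transcription factor of the canal and the later conduction system that is known to repress chamber genes, Gja1 and Gja5 among them. The comparison thus bears on whether the balance of chamber and canal connexins differed when Tbx3 was reduced.

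The names in the deposited files are those of an older nomenclature and were resolved by accession. The probes named Gja7 in the files carry the accession of the present Gjc1, and the probe named Gjc1 carries that of the present Gjd3. The probe named Gje1 carries the accession of the present Gjc3 (Cx29) and was therefore not counted as Gjd3. Results under a connexin name below follow the present nomenclature.

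Each gene had 1 to 4 probes of 60 bases, and the probe with the highest mean intensity gives its value. The probes of Gja5 and Gjc1 read different stretches, and Gja1 and Gjd3 each rest on 1 probe. Probe sequences are therefore shown, except for Gja5 probe 4, which did not pass the filter. They are written 5′ to 3′ on the strand of the transcript, with positions from the files for mouse build mm7. Exon, intron and UTR are not stated for lack of an mm7 annotation in the analysis, and for most probes the first 30 bases are shown.
Gja1 probe 1, chr10:56207239-56207298, plus strand, first 30 bases: ctacacattaactcagaacttgtattctga
Gja5 probe 1, chr3:96925409-96925468, plus strand, first 30 bases: ccgacactggcactaagactctctgttctg
Gja5 probe 2, chr3:96948177-96948236, plus strand, first 30 bases: tgtccccagtggccctgtgtgttgacagag
Gja5 probe 3, chr3:96923028-96923087, plus strand, whole: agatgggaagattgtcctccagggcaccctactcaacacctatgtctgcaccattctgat
Gjc1 probe 1, chr11:102908780-102908839, minus strand, first 30 bases: caggcacatgttctcagcaataatgcagtt
Gjc1 probe 2, chr11:102908966-102909025, minus strand, first 30 bases: tcttggttgggcttaaaacttgggttttca
Gjd3 probe 1, chr11:99091495-99091554, minus strand, whole: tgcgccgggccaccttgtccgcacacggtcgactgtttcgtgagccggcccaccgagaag

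The probes shared little sequence with one another. Over the 8 connexin probes, the longest run of identical bases with a probe for another of the connexins and pannexins considered here was 7 to 9 bases, and for the Gjd3 probe it was 7. The Gjd3 probe was the richest in G and C at 68.3%, and the Gja1 probe held 35.0%. RefSeq promoter windows of 300 bases (GRCm38.p6) were at hand for Gja1 and Gja5. The T-box motif AGGTGTGA, searched on both strands, was in 0 of these 2 windows and in 1.28% of 32851 promoter windows. Its core GGTGTG, which lies inside the longer motif, was in 0 of 2 and in 19.05%. This says only that these letters are not in these windows.

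Tbx3 itself was lower in the mutant pool of every array, at log2 ratios of -1.35, -1.40, -1.43 and -1.21 (mutant over control). Its mean of -1.35 ± 0.10 (SD, n = 4; limma, adjusted p = 0.0454) was past the threshold of 0.05 and was the only 1 of 19091 genes to pass, or 0.00524%. Markers of the labelled tissue were present, with 12 of 12 canal and node genes and 11 of 11 cushion genes well above background in all 8 channels. The same held for all chamber (11), endothelial (12), epicardial (10) and erythroid (9) genes that passed the filter. Presence therefore does not tell the canal from other heart tissue. Without array 1, 3 or 4 the call on Tbx3 was lost and 0 genes passed in limma, with 1497 to 2182 at an unadjusted p under 0.05, against 2778 over 4 arrays. Array 2 stood apart from the rest. Its ratios had an SD over genes of 0.49, against 0.26 to 0.29 on the others, and correlated with those of the others at r between -0.06 and 0.07 (across genes, which are not independent replicates), while the other arrays correlated with one another at 0.25 to 0.66. Each connexin is therefore given with and without that array, a choice made after seeing the data.

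None of the 4 connexins passed the threshold in limma, and 0 of 4 had an unadjusted p under 0.05, which 14.6% of all genes had. Over 4 arrays, Gja1 averaged -0.27, Gja5 -0.11, Gjc1 -0.06 and Gjd3 -0.29 on the log2 scale. Without array 2, Gja1 averaged 0.52 and Gjd3 -0.43, and the adjusted p of each was just above the threshold (0.0609 and 0.0553). Without that array 1.01% of all genes passed 0.05 and 8.11% passed 0.1, so the connexins at these p-values were 2 of many. Gja5 and Gjc1 stayed at -0.15 and -0.05.

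**Figure D1:**
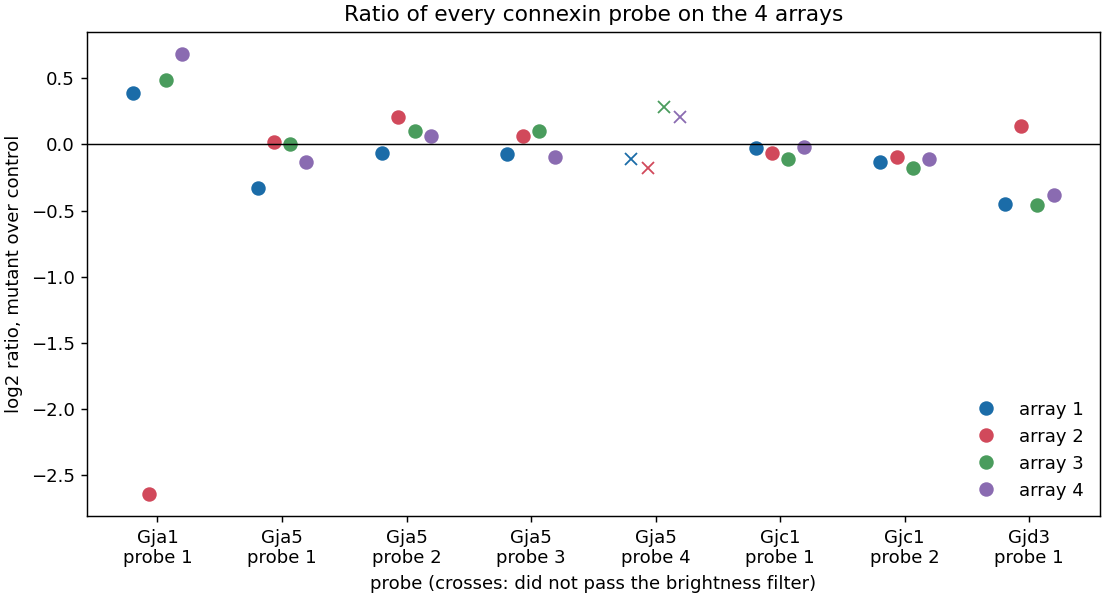
Log2 ratio of mutant over control (vertical axis) for each of the 8 connexin probes (horizontal axis), with 1 point for each of the 4 arrays; crosses mark the Gja5 probe that did not pass the filter. Gja1 lies between 0.39 and 0.68 on arrays 1, 3 and 4 and at -2.64 on array 2, while Gjd3 lies between -0.45 and -0.38 on the same 3 arrays and at 0.14 on array 2.

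Gja1 encodes Cx43, the main gap junction protein of working ventricular muscle. It had log2 ratios of 0.39, -2.64, 0.49 and 0.68 on arrays 1 to 4. The mutant pool was thus the higher one on 3 arrays, and on array 2 the control pool was 6.23-fold above the mutant pool. The mean over 4 arrays was -0.27 ± 1.58 (SD, n = 4; adjusted p = 0.870), with a 95% confidence interval from -1.75 to 1.21. That interval spans a change of more than 2-fold in either direction, so 4 arrays did not settle a direction for Gja1. Without array 2 the mean was 0.52 ± 0.15 (SD, n = 3; adjusted p = 0.0609), or 1.43-fold, with an interval from 0.32 to 0.72. A ratio above 0 on all of arrays 1, 3 and 4 was found for 23.6% of genes. With all arrays kept but weighted by their scatter, array 2 had a weight of 0.397 and the mean turned to 0.28 (adjusted p = 0.707).

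The log2 level of Gja1 in the control pools was 11.26, 12.66, 11.44 and 10.75, and in the mutant pools 11.65, 10.02, 11.92 and 11.43. The highest and the lowest of the 8 levels were thus the 2 pools of array 2. The control pool there was 1.51 above the mean of the other 3 control pools (2.85-fold), and the mutant pool differed from the mean of the other 3 mutant pools by -1.65 (3.14-fold lower). The control pool of array 2 departed upward by at least as much for 377 genes (1.97%), and the mutant pool departed downward by at least as much for 9 genes (0.0471%). Gja1 was the only 1 of the 19091 genes that did both. Both cut-offs were the departures of Gja1 itself, whose array 2 value was known when the genes were chosen. Gja1 thus met them by construction, and these counts describe its values without testing them. With a cut-off of 1 on the log2 scale for both departures, 8 genes passed, Gja1 among them. Egr2, an immediate early transcription factor, Lims2, an adaptor of integrin adhesions, and Vldlr, a lipoprotein receptor, followed Gja1 among these 8 in the size of the mutant pool's departure. These 3 were singled out after their values were seen. Without array 2 the 3 control and 3 mutant levels of Gja1 still overlapped, at the control pool of array 3 (11.44) and the mutant pool of array 4 (11.43).

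**Figure D2:**
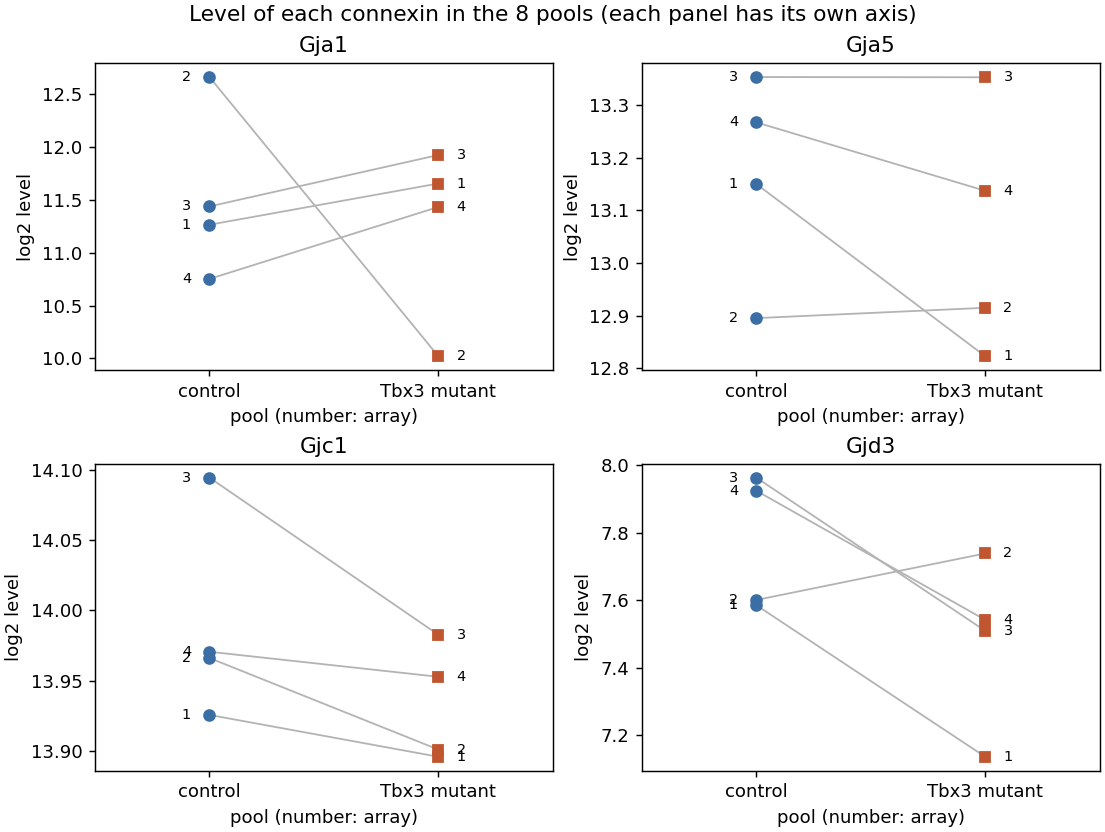
Log2 level of the probe that represents each connexin (vertical axes, 1 panel for each gene with its own scale) in the 4 control pools (circles) and the 4 mutant pools (squares); numbers give the array and grey lines join the pools hybridised together. For Gja1 the pools of array 2 are the highest control (12.66) and the lowest mutant (10.02), and for Gjd3 the line of array 2 alone runs upward.

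The probe for Gja1 was printed 10 times on each array, so the value of array 2 can be read from repeated spots. The 10 log2 ratios ran from -2.66 to -2.60 on array 2, with an SD of 0.02, and their SD on the other arrays was 0.01 to 0.04. These spots share 1 hybridisation and are not replicates of the genotype. Before any normalization the mean spot signal in the control channel was 1949, 4656, 1996 and 1248 on arrays 1 to 4. In the mutant channel it was 4444, 1547, 5056 and 3307. The signals of array 2 were thus reversed in both channels before correction, with the control signal the highest of its channel and the mutant signal the lowest. Raw signals in general were higher in the mutant channel on every array, with medians of 175 to 233 against 118 to 134 in the control channel. The raw order of the channels on arrays 1, 3 and 4 includes that offset. No spot of a connexin probe was saturated.

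**Figure D3:**
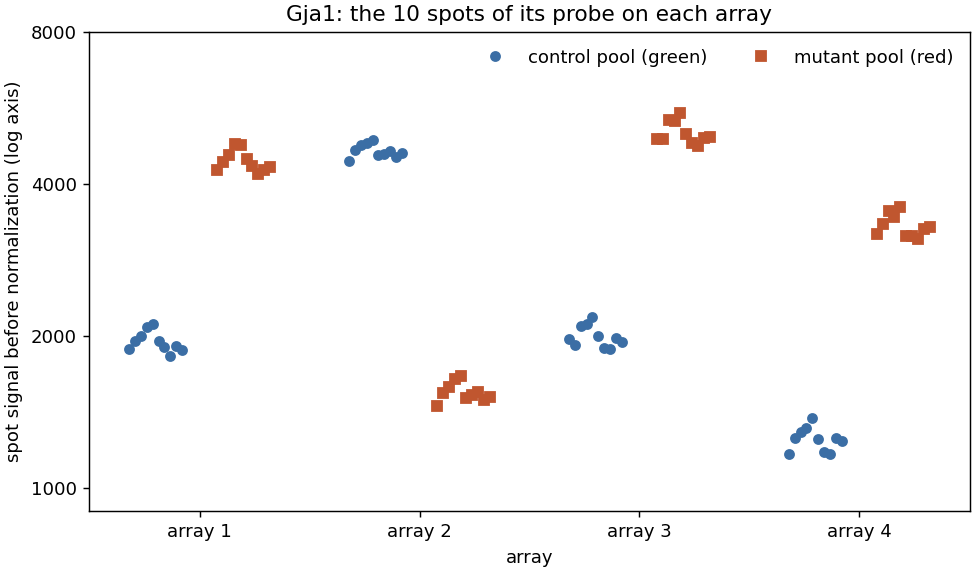
Signal of each of the 10 spots of the Gja1 probe before normalization (vertical axis, log scale) on arrays 1 to 4 (horizontal axis), for the control pool in green dye (circles) and the mutant pool in red dye (squares). The spots of a channel lie close together on every array, and array 2 alone has the control spots (4443 to 4884) above the mutant spots (1453 to 1663).

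Markers of another tissue moved with Gja1 in the control pool of array 2. Gja1 is also abundant in uterine muscle and decidua, and a list of 20 genes typical of the uterus and decidua had been drawn up with results of these arrays known. Of these, 14 were measured above the filter. Their mean log2 level was 11.96 in control pool 2, against 9.67 to 9.83 in the other control pools and 9.58 to 10.20 in the mutant pools. In control pool 2, 9 of the 14 were more than 1 above the mean of the other control pools, where 625 of all 19091 genes were. Hoxa10, a homeobox gene of the reproductive tract, stood at 11.85 there and at 6.19 to 6.44 in the other controls, and Esr1, the oestrogen receptor, at 11.33 against 8.54 to 8.61. The rest of the 14 differed less from the mean of the other controls. The smooth muscle genes Actg2 and Cnn1 differed by -0.08 and -0.17, Wnt4 by -0.09, Des by 0.43 and Greb1 by 0.35. Of the 6 genes that did not pass the filter, the progesterone receptor Pgr (7.63) and Hoxd10 (9.34) were highest in control pool 2, while Prl3c1, Oxtr, Wfdc15b and Cfd were between 5.98 and 6.26 in that pool. Their part in the Gja1 value was not tested.

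The mutant pool of array 2 did not carry that list in the same way. Its uterine mean of 10.12 lay within the range of the other mutant pools, and 10 of the 14 genes were above the mean of the other mutants there. Departures from that mean ran from -0.43 (Prl8a2) to 1.70 (Hoxa11, at 8.61 against 6.42 to 7.76 in the other mutants). The highest mutant mean, 10.20, was that of mutant pool 3, where Prl8a2 stood at 11.27, above its 10.25 in control pool 2. The chamber muscle list departed in the direction of Gja1 in mutant pool 2. All 11 chamber genes were lower in mutant pool 2 than the mean of the other mutant pools (median -0.34), as were 11454 of all genes (median -0.06). The natriuretic peptide genes Nppa and Nppb, which mark working chamber muscle, differed from that mean by -1.54 and -1.94. Mean levels of the chamber list were 12.55, 11.96, 12.67 and 12.39 in mutant pools 1 to 4 and 11.89 to 12.16 in the control pools. The mean of the endothelial list lay between 11.71 and 11.92 in all pools. The cushion list, like the uterine one, was highest in control pool 2, with a mean of 13.90 against 13.11 to 13.22 in the other controls and 12.82 to 13.02 in the mutants. On array 2, 3 of its 11 genes had ratios below -1, among them the collagen Col1a1 (-3.58) and the matrix gene Postn (-1.82). The epicardial list departed in the direction of Gja1 in both pools of array 2, by less. Its mean was 11.87 in control pool 2, against 11.56 to 11.81 in the other controls. In mutant pool 2 it was 11.71, against 11.84 to 12.30 in the other mutants, and 2 of its 10 genes had ratios below -1 on that array. The part of the chamber, cushion and epicardial genes in the Gja1 value was not tested.

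**Figure D4:**
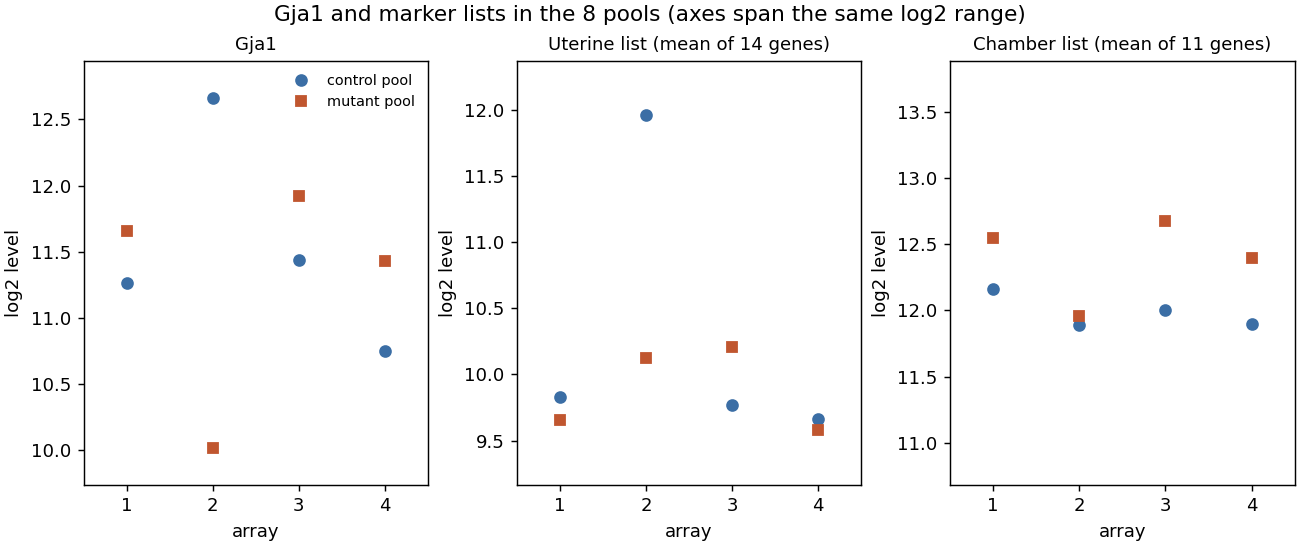
Log2 level of Gja1 and mean log2 levels of 14 uterine and 11 chamber marker genes (vertical axes, which span the same range) by array (horizontal axes) in control pools (circles) and mutant pools (squares). On array 2 the control pool is the highest of the 8 for Gja1 (12.66) and for the uterine list (11.96), and the mutant pool is the lowest of the 8 for Gja1 (10.02) and the lowest mutant for the chamber list (11.96).

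Gja5 encodes Cx40, the connexin of atrial muscle and of the trabeculae that give rise to the ventricular conduction system. On the array 4 probes carry its name, of which probe 1 had the highest mean signal and represents the gene. Its log2 ratios were -0.33, 0.02, -0.00044 and -0.13, so the mutant pool was lower on arrays 1 and 4 and about level with its control on arrays 2 and 3. The mean was -0.11 ± 0.16 (SD, n = 4; adjusted p = 0.588), with a confidence interval from -0.31 to 0.09. The interval leaves room for a ratio down to 0.805-fold or up to 1.07-fold. With median centring in place of loess the direction turned, to 0.33 (adjusted p = 0.0345), where the median of all genes stood at 0.23. Levels were 13.15, 12.90, 13.35 and 13.27 in the control pools and 12.82, 12.92, 13.35 and 13.14 in the mutant pools, and the groups overlapped.

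The other probes named Gja5 gave means on the other side of 0 or at it. The gene has a reference length of 21233 bases. Probe 2 starts further than that from probe 1, and probe 4 further still, so probes 2 and 4 may not read the same transcript. Whether they read Gja5 was not tested. Probe 2, which carries a cDNA accession and starts 22768 bases from probe 1, read -0.06, 0.20, 0.10 and 0.07, with a mean of 0.08 ± 0.11 (SD, n = 4; adjusted p over all probes = 0.680). Probe 3, which starts 2381 bases before probe 1 and has the same accession, read -0.07, 0.06, 0.10 and -0.10, with a mean of -0.00042 ± 0.10 (adjusted p over all probes = 0.998). Probe 4, which starts 1335006 bases from probe 2, was well above background in 1 control and 1 mutant channel and did not pass the filter. Its ratios of -0.11, -0.18, 0.28 and 0.21 changed sign between arrays. No probe named Gja5 had the same sign on all 4 arrays, and with the mean over its kept probes, probe 2 included, the gene stood at -0.01.

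Gjc1 encodes Cx45, the connexin of the early heart tube that persists in the canal and the nodes. It was lower in the mutant pool on all 4 arrays with both of its probes, which start 186 bases apart. Probe 1 had log2 ratios of -0.03, -0.07, -0.11 and -0.02 and a mean of -0.06 ± 0.04 (SD, n = 4; adjusted p = 0.696; interval -0.20 to 0.09). Probe 2 read -0.14, -0.10, -0.18 and -0.11, with a mean of -0.13 ± 0.04 (SD, n = 4; adjusted p over all probes = 0.409). A ratio below 0 on all 4 arrays was found for 12.6% of all genes. Median centring turned this direction as well, with probe 1 at 0.45 (adjusted p = 0.00686) beside the same median of 0.23.

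The 2 probes differed in whether the pools separated. By probe 1 the levels were 13.93, 13.97, 14.09 and 13.97 in the control pools and 13.90, 13.90, 13.98 and 13.95 in the mutant pools, so the groups overlapped. With probe 2 all mutant pools (13.54 to 13.60) lay under all control pools (13.63 to 13.78), which was also so for 5.11% of genes. Genes of like brightness shared part of this offset. The median ratio of the 514 genes within 0.25 of the mean log2 intensity of probe 1 was -0.05, about the value of probe 1, and that of the 621 genes around probe 2 was -0.05, against -0.13 for the probe. With the running median over intensity removed, Gjc1 stood at -0.0046.

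Gjd3 encodes Cx30.2, a connexin of the atrioventricular and sinus nodes whose channels have a low conductance. Its single probe read -0.45, 0.14, -0.45 and -0.38. The mutant pool was thus lower on arrays 1, 3 and 4, which lay close together, and slightly higher on array 2. The mean was -0.29 ± 0.29 (SD, n = 4; adjusted p = 0.358), with an interval from -0.59 to 0.01. Without array 2 it was -0.43 ± 0.04 (SD, n = 3; adjusted p = 0.0553), or 0.743-fold, with an interval from -0.58 to -0.27. A ratio below 0 on arrays 1, 3 and 4 was found for 22.9% of genes.

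Levels of Gjd3 were 7.59, 7.60, 7.96 and 7.92 in the control pools and 7.14, 7.74, 7.51 and 7.54 in the mutant pools. The groups overlapped over 4 arrays through pool 2. Without the pools of array 2 all mutant levels were under all control levels, as for 13.3% of genes. The canal and node list, which Gjd3 did not belong to, showed a like split by array in its medians (-0.41, 0.15, -0.53 and -0.37). Its 4 genes of smallest p did not share the split. On array 2 Tbx3 read -1.40, Cacna1g -1.31, Rspo3 -0.35 and Cpne5 -0.12. The split was also not particular to canal genes. The list of connexin regulators described below, which also holds Tbx3, had medians of -0.15, 0.23, -0.12 and -0.06. The part of these lists in the Gjd3 value was not tested. The probe was well above background in all 8 channels, with spot signals of 141 to 171 in the control channel and 161 to 301 in the mutant channel before normalization. The mutant signal of 301 was that of array 2.

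**Figure D5:**
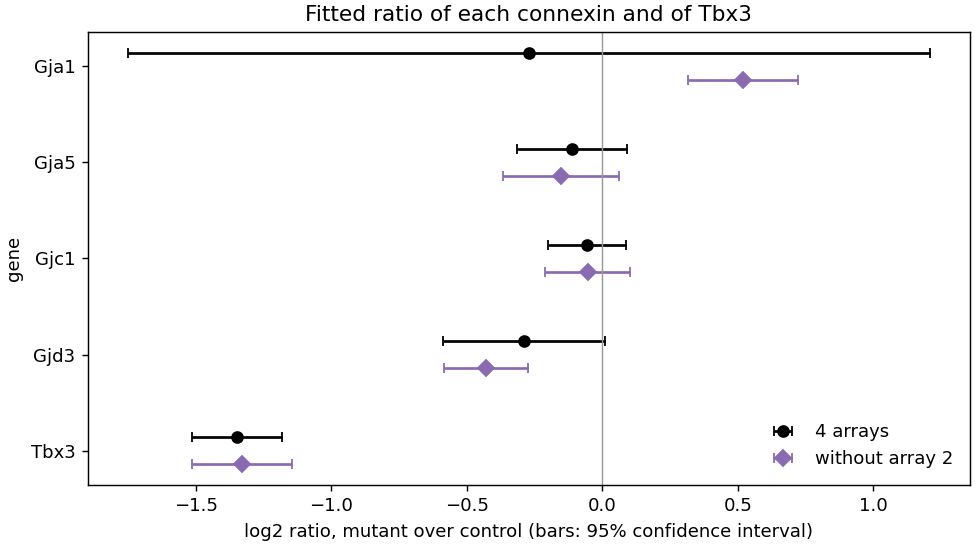
Fitted log2 ratio of mutant over control (horizontal axis) with its 95% confidence interval for the 4 connexins and Tbx3 (vertical axis), over all 4 arrays (circles) and without array 2 (diamonds). The interval of Gja1 narrows from -1.75 to 1.21 to between 0.32 and 0.72 without array 2, and those of Gja5 and Gjc1 include 0 either way. Array 2 was left out after its values were seen.

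Other gap junction genes were taken as a list of 18 connexins and pannexins, of which 17 had a probe and 8 passed the filter. Means of 6 of the 8 were negative and 2 positive over 4 arrays, and with median centring 4 were negative and 4 positive. None passed the threshold, and 3 had an unadjusted p under 0.05, all of them lower in the mutant, against 7.45% of all genes in that direction. Gja3 (Cx46), known from the lens, had ratios of -0.61, -0.36, -0.60 and -0.41 and a mean of -0.49 ± 0.13 (SD, n = 4; adjusted p = 0.132). Its second kept probe read 0.14, 0.31, -0.17 and 0.15, so the 2 probes of Gja3 did not share a direction. Gja4 (Cx37), the connexin of arterial endothelium and endocardium, averaged -0.25 ± 0.05 (SD, n = 4; adjusted p = 0.190), with -0.25, -0.20, -0.24 and -0.32 on the arrays, and stood at 0.10 with median centring. Panx1, a pannexin that forms channels in the membrane of single cells, averaged -0.24 ± 0.16 (adjusted p = 0.282) and 0.21 with median centring. Its second kept probe read -0.02, 0.12, 0.06 and 0.17, a mean in the other direction (0.08).

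The remaining members of the list showed no common direction. Gja6 (mean 0.21 ± 0.32) read 0.69 on array 1, with 0.03 to 0.10 elsewhere. Gjb2 (Cx26) ran from -0.53 to 0.37 over the arrays. Gjb1 (Cx32), Gjb5 (Cx31.1) and Gjd4 (Cx39) had means of -0.07, 0.07 and -0.06. Another 9, Gjc3 among them, did not pass the filter, and Panx2 had no probe by name.

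Gap junctions of heart muscle sit in the intercalated disc beside adherens junctions and desmosomes, and 29 genes of that structure and of connexin handling were all measured. Of these, 11 had positive and 18 negative means, with a median of -0.04 beside 0.0012 for all genes. None passed the threshold, and 6 of the 29 had an unadjusted p under 0.05, 3 in each direction, beside 14.6% of all genes (7.45% lower and 7.1% higher). Cav3, the caveolin of muscle membranes, averaged -0.39 ± 0.17 (SD, n = 4; adjusted p = 0.173), with a value of 0.04 under median centring. Csnk1d, a casein kinase of the family that phosphorylates Cx43, averaged 0.29 ± 0.16 (adjusted p = 0.228), and Dsc2, a desmosomal cadherin, 0.27 ± 0.15 (adjusted p = 0.247). Des, the intermediate filament desmin, averaged -0.22 ± 0.09 (adjusted p = 0.25) and 0.22 under median centring.

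Transcription factors and signals that act on connexin genes formed a list of 26, all measured, with 13 positive and 13 negative means and a median of -0.01. The 1 call among them was Tbx3, and 5 of 26 had an unadjusted p under 0.05, near the 14.6% of all genes. Mef2c, a muscle transcription factor, averaged 0.40 ± 0.10 (SD, n = 4; adjusted p = 0.142) and was positive on all 4 arrays, as were 12.3% of all genes. Irx5, an Iroquois factor of the embryonic heart, averaged 0.41 ± 0.34 (adjusted p = 0.283) with ratios of 0.46, -0.08, 0.65 and 0.62. Without array 2 it passed the threshold (0.58, adjusted p = 0.0477), as did Msx2 and Tbx3 of this list. Tbx2, the T-box repressor that shares the canal with Tbx3, averaged 0.28 ± 0.24 (adjusted p = 0.324) and ranged from 0.02 to 0.55.

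Genes whose 4 ratios lay nearest to those of a connexin were found by the root mean square difference over the arrays. For Gja1 the nearest was Rgs2, a regulator of G protein signalling, at a distance of 0.0755, followed by Lgals3bp (0.200) and H2-M3 (0.212), and 4 genes lay within 0.25. Rgs2 was at 15.12 in control pool 2 and 12.22 to 12.46 in the other controls. All 3 genes were picked by ratios that include array 2, so their pool 2 levels follow in part from the choice and are no separate result. Mutant pool 2 was the lowest mutant pool for all 3, for Lgals3bp only by 9.993 against 10.005 in mutant pool 1. Mutant pool 2 differed from the mean of the other mutant pools by -0.38 for Rgs2, -0.09 for Lgals3bp and -0.45 for H2-M3, beside -1.65 for Gja1. Gjd3 was nearest to Atp6v0e2 (0.0346), a proton pump subunit, Ncdn (0.0519), a neuronal protein, and Mapk8ip1 (0.0523), a kinase scaffold, and 1142 genes lay within 0.25. Near-flat ratios have many neighbours, and 6282 genes lay within 0.25 of Gja5 and 8803 of Gjc1. The nearest were Fastkd3, Cxxc4 and Rcan3 for Gja5 and Emc6, Olfr295 and Gpatch1 for Gjc1.

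Cell type lists give the setting of these values, and their part in them was not tested. Medians over 4 arrays were 0.21 for 11 chamber genes, -0.15 for 12 canal and node genes, -0.05 for 12 endothelial, -0.23 for 11 cushion and 0.19 for 10 epicardial genes, with 0 calls in limma other than Tbx3. An unadjusted p under 0.05 in limma was reached by 5 chamber genes (all higher), 5 canal genes (4 lower and 1 higher) and 1 endothelial gene (higher). It was also reached by 3 cushion genes (all lower) and 1 epicardial gene (higher), beside 14.6% of all genes (7.45% lower and 7.1% higher). Without array 2 the calls were 2 chamber genes (Nppa and Nppb, higher), 4 canal genes (Tbx3, Cacna1g, Cpne5 and Msx2, lower), 1 cushion gene (Postn, lower) and 1 epicardial gene (Krt19, higher), beside 1.01% of all genes. The 9 erythroid genes measured had medians of 1.66, 0.58, -0.25 and -0.16 on arrays 1 to 4, so their ratio changed sign between arrays. By smallest p the leading members were Nppb (1.57 ± 0.79) and Nppa (1.28 ± 0.83) for chamber, Cacna1g (-1.04 ± 0.19) after Tbx3 for canal, Prrx1 (-0.55 ± 0.24) for cushion and Krt19 (1.38 ± 0.49) for epicardium, each SD with n = 4 and none past the threshold over 4 arrays but Tbx3.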

How the data were processed

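RNA of micro-dissected atrioventricular canals, pooled from 5 hearts, was amplified and hybridised to 2-colour Agilent arrays of 60-base probes, per the labels' protocols. The authors deposited scanner files made with Agilent Feature Extraction 9.5.1, according to the submitters' processing notes. The intensity columns deposited are mean spot signals before background subtraction, with a local background. A deposited log10 ratio gives red (mutant) over green (control), computed by the scanner software from its corrected signals, per the file headers. The deposited series table matched it on every array, with column medians of 0. All 4 arrays lay on 1 slide, so slide could not be tested. The p-values take the pools, which the labels call biological replicates, as the unit.

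Background was corrected with normexp (offset 50), arrays were normalized within themselves by loess with control spots at weight 0, spots marked non-uniform were dropped and repeated spots averaged (limma 3.58.1, R 4.3.3). Of 41174 probes, 28794 were kept as well above background in 1 channel on at least 3 arrays. The probe with the highest mean intensity stood for a gene. The test of the log2 ratio against 0 was limma's moderated one (lmFit, then eBayes; 2-sided), adjusted over 19091 genes after Benjamini and Hochberg; probes were also fitted together. Levels are log2 channel values after Aquantile scaling. The procedure was tested on simulated data. Median signals were 118 to 134 (control) and 175 to 233 (mutant), and the number of arrays limits the precision.

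Replicate numbers pair the pools hybridised together. Deviations of same-numbered pools from their group means correlated at 0.26, 0.27, 0.09 and 0.43, and those of differently numbered pools at -0.34 to 0.32. The pairing follows from the shared array, not from this check.

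The members and lists were chosen with earlier results of these data known. Genes named by rule are the members, Tbx3, listed connexins past the filter, up to 4 genes of a list by smallest p, and the 3 genes nearest each member in ratio. Other genes named fall outside this rule. They include further uterine genes, genes whose pool levels departed like those of Gja1, genes called only when an array was left out, and genes that did not pass the filter. These were named with their values known, not by a fixed rule. Alternatives changed the background correction, normalization, filter, probe rule, weights, pairing and arrays.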

Additional observations from a re-analysis of the deposited data

Results flagged for a closer look

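A sample far from the others was sought by Dixon's ratio, the gap of an extreme value to its nearest neighbour over the whole range, against its 95% critical value for 4 values. Over 32 sets of 4 values (ratios of the connexins and named family members, and levels in each group of pools), 3 were past the limit. The sets overlap, since ratios and levels come from the same spots, and array 2 stood apart over all genes. The count of 3 therefore cannot be set against a chance rate. Gja1 was at -2.64 on array 2 (gap over range 0.913); this value was known when the genes were chosen, so it is a description and not a test. Gjd3 was at 0.14 on array 2 (0.879), where the other 3 ratios were negative. Gja6 was at 0.69 on array 1 (0.891).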

How the results depend on the processing

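The alternatives covered 13 settings with all arrays and 8 that left out an array. Gjd3 was negative in all of them and Gja5 and Gjc1 in all but 1. With median centring in place of loess, which shifts the median of all genes to 0.23, Gja1 stood at 0.0784, Gja5 at 0.33 (adjusted p = 0.0345), Gjc1 at 0.45 (adjusted p = 0.00686) and 7772 genes passed (7202 higher, 570 lower, against 0 and 1). Relative to that median they stood at -0.15, 0.10 and 0.23, and Gjd3 at -0.43. Array weights gave Gja1 0.28 and 234 genes (135 higher, 99 lower). Without the replicate block, as unpaired pools, 191 genes passed (129 higher, 62 lower) and no connexin changed its call. Leaving out 1 array and changing nothing else gave 0 to 193 genes, Gja1 -0.59 to 0.52, Gja5 -0.15 to -0.04, Gjc1 -0.07 to -0.04 and Gjd3 -0.43 to -0.23. The 193 (130 higher, 63 lower) were without array 2. Leaving out array 2 together with a second change, chosen after seeing the data (the authors' processed signals, a running median, an offset of 16 or no block), gave 3, 72, 13 and 447 genes and Gja1 0.504, 0.514, 0.52 and 0.52. Over these 4, Gja5 stood at -0.16 to -0.15, Gjc1 at -0.06 to -0.0069 and Gjd3 at -0.72 to -0.43. No background correction, an offset of 16, scaling between arrays, the mean over probes and a trended robust fit gave 0 genes in limma (2345 to 2882 at an unadjusted p under 0.05), and the authors' processed signals 3 (3 higher). The cause was not tested. Gjd3 and 3 of the Gja5 probes had low signals, and 4 arrays limit what could be called.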
